A study of Rattus norvegicus with 15 samples.

Results

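The comparison described here set the colon of transgenic (TG) rats against that of wild type (WT) littermates when both had been given antibiotics. It used 6 of the 15 libraries of the series: the 3 libraries titled Tg Ab (TG-Ab) and the 3 titled WT Ab (WT-Ab), chosen by their titles alone. TG rats were homozygous for a bacterial artificial chromosome that carries a human gene with its introns and its own human promoter, on an outbred Sprague Dawley background. Both groups were 3 M old and had received a mixture of antibiotics with sucrose in the drinking water for 2 weeks, starting at 2.5 M. The mixture held amoxicillin with clavulanic acid, vancomycin, neomycin, cefuroxime, streptomycin and ampicillin. The RNA came from the mucosa and submucosa of the colon (MS tissue layer). Untreated TG and WT rats of the same age (TG-C and WT-C, 3 libraries each) served as reference for the same genotype contrast, and no library is shared between the 2 contrasts. Rats of the study's main cohort were caged by genotype, and in a smaller cohort the genotypes shared cages. How the rats of these libraries were caged is not given, so genotype and cage cannot be told apart.

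The colon mucosa absorbs water and electrolytes, makes the mucus layer and houses a large part of the body's immune cells, and it responds to the bacteria in the lumen. Broad antibiotics remove much of that bacterial community. The contrast therefore asks how colon transcription differs between the genotypes when both have received antibiotics. The antibiotic groups have no arm that received sucrose alone in the labels used here, so antibiotics and sucrose cannot be told apart in any value set against untreated rats.

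Total counts in genes ran from 15606835 to 17322155 in WT-Ab and from 17383305 to 19240232 in TG-Ab. Of 32883 annotated genes, 12274 reached 4 CPM (reads of a gene per 1e+06 reads counted in the library) in at least 1 of the 6 libraries and were tested. The deposited tables give genes by Ensembl identifier and position on the Rnor6 build. The RefSeq table used here pairs none of these identifiers with a symbol, so the markers of colon cell types could not be looked up, and the labelled genotype and tissue were not checked. Genes are therefore named by identifier or by position, and what a gene is known to do is left out.

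In the colon of antibiotic-treated rats, 1 gene passed the test across all genes. ENSRNOG00000037673, a gene of chromosome 1 with a single annotated exon of 464 bp (chr1:84573496-84573959, plus strand, Rnor6), fell in TG-Ab. Its level was 27.1, 20.8 and 23.3 CPM in WT-Ab 1, 2 and 3. In TG-Ab 1, 2 and 3 it was 0.920, 0.572 and 0.514 CPM. The groups did not overlap, and the lowest WT-Ab library stood far above the highest TG-Ab library. The mean was 23.8 ± 3.16 CPM in WT-Ab and 0.669 ± 0.220 CPM in TG-Ab (SD, n = 3), which is 35.5-fold lower. The log2 fold change was -5.15 with a standard error of 0.294, and edgeR's quasi-likelihood test gave an adjusted p of 0.0112. With the library number as a block the fold change was -5.16 and the adjusted p 0.0629, so the call was lost. The call was also lost when any library other than TG-Ab 1 was left out, where adjusted p ran from 0.0523 to 0.151. Without TG-Ab 1 it was 0.0420.

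The untreated rats showed this gene in a different arrangement. TG-C libraries held 68.1, 16.7 and 22.5 CPM, and WT-C libraries 20.9, 0.808 and 0.710 CPM. WT-C 1 thus had the level of the WT-Ab libraries, while WT-C 2 and 3 had that of TG-Ab. Untreated, the log2 fold change of TG over WT was 2.23 with a standard error of 1.39 (edgeR, adjusted p = 0.910). When the 12 libraries at 3 M were fitted together with a term for each group, the TG-Ab against WT-Ab difference of this gene had an adjusted p of 1.0 by edgeR, with a nearly equal fold change of -5.12.

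A second gene with a single exon stood at zero in TG-Ab. ENSRNOG00000061943 (chr7:121342679-121343013, plus strand, 335 bp of exon) had 55, 91 and 104 counts in WT-Ab 1, 2 and 3 and 0 counts in each TG-Ab library. That is 5.14 ± 1.58 CPM in WT-Ab (SD, n = 3) and, against a floor of 3 counts per TG-Ab library, a level at least 30.9-fold lower in TG-Ab. It did not pass the test across all genes (edgeR, adjusted p = 1.0, and likewise 1.0 with the block). Untreated, its counts were 93, 1 and 0 in WT-C and 183, 159 and 132 in TG-C. The libraries in which it was at or near zero were thus TG-Ab 1, 2 and 3 and WT-C 2 and 3, the same 5 libraries in which the chromosome 1 gene was at 0.920 CPM or less. In the 3 libraries of older WT rats of the series (> 12 M) the chromosome 1 gene had 4.28, 6.34 and 5.83 CPM. The chromosome 7 gene had 170, 255 and 212 counts there. Whether the 5 libraries at or near zero share anything beyond their labels was not tested.

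**Figure D1:**
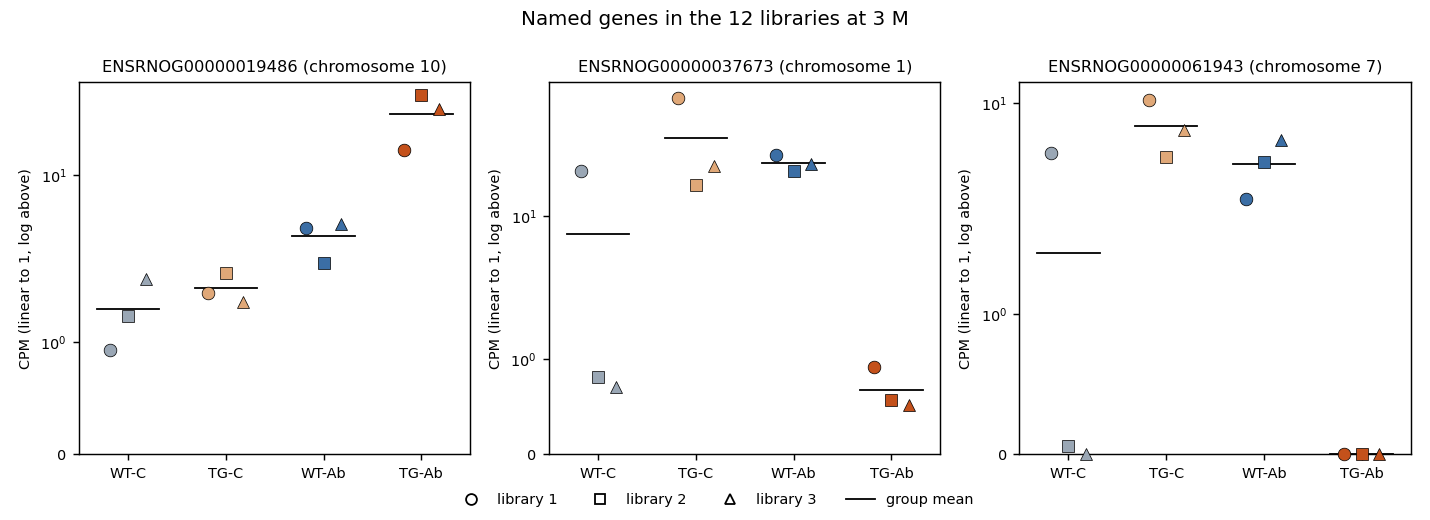
Level in CPM (vertical axis, linear up to 1 and logarithmic above) of the 3 genes named by identifier in the 3 libraries of each group at 3 M, with the marker shape giving the library number and the line the group mean. The right panels show the 2 genes near zero in TG-Ab and in WT-C 2 and 3, and the left panel shows the chromosome 10 gene, with TG-Ab at 14.2 to 30.0 CPM above all other libraries.

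Among genes with higher levels in TG-Ab, ENSRNOG00000019486 (chr10:59799123-59824679, plus strand, 19 exon intervals with 3512 bp) had groups that overlapped in untreated rats and did not under antibiotics. It had 4.85, 3.00 and 5.13 CPM in WT-Ab and 14.2, 30.0 and 24.8 CPM in TG-Ab. Means were 4.33 ± 1.15 and 23 ± 8.10 CPM (SD, n = 3), a 5.32-fold difference. WT-C libraries held 0.935, 1.44 and 2.40 CPM and TG-C libraries 1.98, 2.61 and 1.75 CPM. The WT-Ab libraries therefore lay above all 6 untreated libraries, and the TG-Ab libraries above the WT-Ab libraries. The log2 fold change under antibiotics was 2.41 with a standard error of 0.378 (edgeR, adjusted p = 1.0 without and with the block). The genotype effect under antibiotics exceeded that in untreated rats by 2.06 on the log2 scale, which did not pass the test (edgeR, adjusted p = 0.998).

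Across all genes few calls were made by edgeR's quasi-likelihood test. Without the block, 1 of 12274 genes (0.00815%) had an adjusted p under 0.05, and 161 (1.31%) had an unadjusted p under 0.05, where that threshold alone would give 614. With the block no gene passed at an adjusted p under 0.05 (edgeR, smallest adjusted p = 0.0629), and 283 (2.31%) had an unadjusted p under 0.05. The number at an unadjusted p under 0.05 depended on the fit. It was 1724 of 12274 with limma's sample weights, where no gene had an adjusted p under 0.05. Without both libraries numbered 1 it was 1453 of 11781 by edgeR, with 1 gene at an adjusted p under 0.05. DESeq2 and edgeR's likelihood ratio test called more genes. DESeq2's Wald test gave 16 genes without the block, of which 13 were higher in TG-Ab and 3 lower, and 23 with it, of which 17 were higher and 6 lower. The counts from edgeR's likelihood ratio test were 5 without the block and 23 with it.

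At an unadjusted p under 0.05 with at least a 2-fold difference, the fit without the block gave 63 genes (0.513% of those tested), 44 higher in TG-Ab (0.358%) and 19 lower (0.155%). None but the chromosome 1 gene holds after correction for the number of genes tested, so what follows describes these genes and makes no claim for each of them. The genes higher in TG-Ab had a median log2 fold change of 1.25 against a median fold change of -0.04 over all genes tested. Those lower in TG-Ab had a median log2 fold change of -1.33. TG-Ab and WT-Ab did not overlap in 38 of the 44 and in 12 of the 19, where 318 genes of all tested (2.59%) lay higher and 201 (1.64%) lower without overlap. The difference had the same sign in all 3 numbered pairs in 39 of the 44 and in 17 of the 19. Of all genes tested, 995 (8.11%) were higher and 1388 (11.3%) lower in TG-Ab in all 3 pairs. These shares follow in part from the rule that chose the genes. The highest of the 12 libraries at 3 M was a TG-Ab library in 38 of the 44, and it was TG-Ab 1 in 2 of them and TG-Ab 2 or TG-Ab 3 in 18 each. That count follows in part from the same rule, and no count over all genes stands beside it. By exon length, 21 of the 44 and 12 of the 19 fell into the shortest class of genes tested (4093 genes), and 8 and 3 into the longest (4092 genes).

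**Figure D2:**
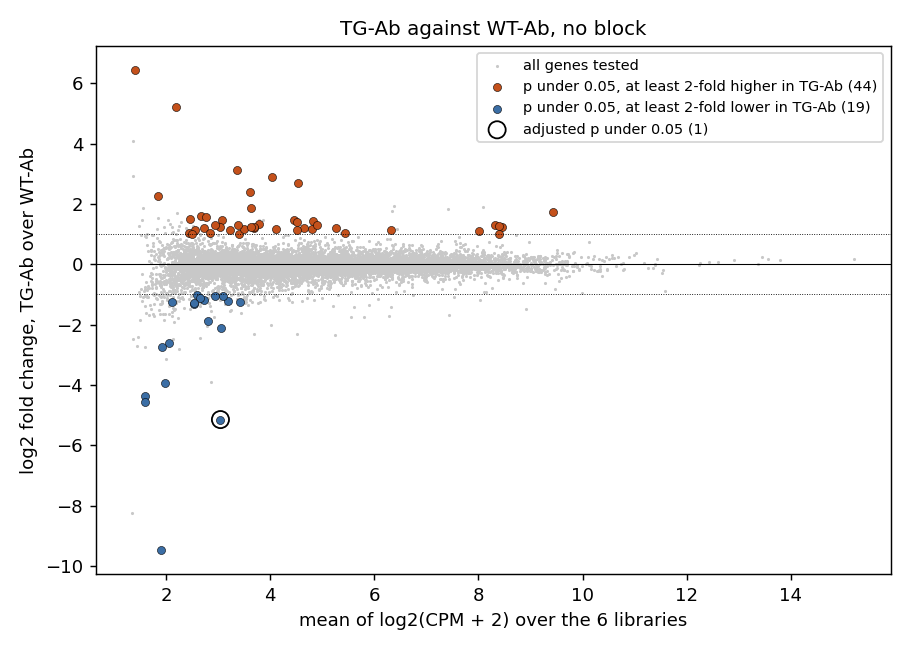
Log2 fold change of TG-Ab over WT-Ab (vertical axis) against the mean of log2(CPM + 2) over the 6 libraries (horizontal axis) for the 12274 genes tested, with the 44 genes higher and the 19 lower at an unadjusted p under 0.05 and at least 2-fold in colour and the 1 gene at an adjusted p under 0.05 circled. Fold changes of genes with no counts in a group depend on the small count edgeR adds.

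Of the 44 genes, 7 had a TG-Ab mean of at least 100 CPM (a value not scaled by gene length). One was on chromosome 3 (chr3:122544788-122580905). It had 483, 222 and 488 CPM in WT-Ab and 802, 1384 and 1768 CPM in TG-Ab. Every TG-Ab library was above every WT-Ab library, with a log2 fold change of 1.74 and a standard error of 0.434. Untreated, it had 7.91, 498 and 282 CPM in WT-C and 347, 882 and 309 CPM in TG-C. WT-C 1 thus stood far below the other 11 libraries.

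WT-C 1 stood low among the untreated libraries in many of these genes. It was the lowest of the 12 libraries in 23 of the 44 genes, where 6.76% of all genes tested had their lowest level in it. In 9 of the 44 its CPM was less than 0.1 of that in every other library at 3 M, which held for 24 of 12274 genes in all (0.196%). A gene of chromosome 10 (chr10:84031955-84034228) is an example, with 0.0623 CPM in WT-C 1 against 94.7 and 143 CPM in WT-C 2 and 3. The same gene had 199, 127 and 214 CPM in WT-Ab and 288, 483 and 384 CPM in TG-Ab. In the 3 libraries of older WT rats of the series (> 12 M) it had 2.64, 78.9 and 1.58 CPM, so low levels were not limited to WT-C 1. Similar gaps appeared on chromosome 12 (chr12:22535672-22544479, 3.55 CPM in WT-C 1 against 190 and 532 CPM in WT-C 2 and 3) and on chromosome 16 (chr16:18745458-18766174, 5.36 against 117 and 299 CPM). These 4 genes were picked after their values had been seen.

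The other 3 of the 7 lay on chromosomes 13, 8 and 6. A gene of chromosome 13 (chr13:91773004-91776397) had 185, 215 and 291 CPM in WT-Ab and 687, 358 and 608 CPM in TG-Ab. Its WT-C libraries spread from 2.24 to 696 CPM, so the untreated group covered the range of both treated groups. On chromosome 8 (chr8:39708638-39734594) the levels were 293, 132 and 225 CPM in WT-Ab and 252, 613 and 726 CPM in TG-Ab, and the groups overlapped through library 1. The last of these lay on chromosome 6 (chr6:75050329-75075795), at 52.1, 49.0 and 59.7 CPM in WT-Ab and 85.9, 129 and 137 CPM in TG-Ab. There the untreated libraries ran from 25.8 to 70.2 CPM in both genotypes together.

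Small spreads within both groups were seen in 2 further genes. One on chromosome 10 (chr10:110138586-110148358) held 16.1, 14.3 and 22.4 CPM in WT-Ab and 46.4, 41.5 and 44.0 CPM in TG-Ab, a log2 fold change of 1.31 with a standard error of 0.221. Another on chromosome 19 (chr19:56435577-56441733) held 6.76, 5.54 and 7.88 CPM in WT-Ab and 14.4, 16.3 and 17.3 CPM in TG-Ab, a log2 fold change of 1.24 with a standard error of 0.231. In the chromosome 19 gene the 6 untreated libraries lay between 7.52 and 10.9 CPM, so that TG-Ab was apart from all 9 other libraries. Both were picked after their values had been seen, and neither passed the adjusted test.

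TG-Ab was above all 9 other libraries at 3 M in 24 of the 44 genes, where 160 of all genes tested (1.30%) had that order. That count follows in part from the rule that chose the 44. TG-Ab lay above WT-Ab without overlap in 38 of them, and in 318 of all genes tested (2.59%), which include the 160. In 8 of the 44 the 6 treated libraries were all above the 6 untreated ones, and 378 of all genes tested (3.08%) were so placed. TG-Ab was below all 9 other libraries in 1 of the 19 genes lower in TG-Ab and in 26 of all tested (0.212%). The rule that chose the 19 favours that order too. In the 8 genes the groups formed steps, with WT-Ab above every untreated library and TG-Ab above every WT-Ab library. Only 31 of 12274 genes (0.253%) had such steps, and the rule that chose the 44 favours its upper step. One of the 8 lay on chromosome 15 (chr15:106800081-106844426, 23 exon intervals). It had 0.710 to 1.05 CPM in the 6 untreated libraries, 14.5, 7.39 and 18.3 CPM in WT-Ab and 22.1, 34.6 and 50.3 CPM in TG-Ab. Another, on chromosome 13 (chr13:36094520-36101411), had 3.30 to 7.53 CPM untreated, 17.5, 12.8 and 22.2 CPM in WT-Ab and 37.6, 41.1 and 39.2 CPM in TG-Ab.

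Some of the 63 genes lay near one another. With a distance of at most 500 kb between neighbours, 17 of the 63 fell into 8 groups, and 7 of the 8 groups held genes of one direction only, where 44 of the 63 were higher. No count for other genes stands beside these, so they describe the list and say nothing particular of it. The only trio was on chromosome 10, within 112 kb that hold 4 tested genes, and it begins with ENSRNOG00000019486. The second gene of the trio (chr10:59831241-59860987) had 18.2, 9.01 and 10.2 CPM in WT-Ab and 20.7, 36.8 and 43.9 CPM in TG-Ab. The third (chr10:59879850-59911051) had 1.91, 2.02 and 3.14 CPM in WT-Ab and 4.60, 5.61 and 4.57 CPM in TG-Ab. All 3 had no overlap between the treated groups, and their log2 fold changes were 2.41, 1.46 and 1.05. The annotated intervals of the trio do not overlap, and whether its genes share reads was not tested.

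A pair on chromosome 11 lay within 23.6 kb. Its first gene (chr11:54543731-54545230) had 5.87, 13.0 and 7.95 CPM in WT-Ab and 53.5, 22.3 and 97.3 CPM in TG-Ab. The second (chr11:54565472-54567357) had 1.72, 2.37 and 4.42 CPM in WT-Ab and 19.6, 8.37 and 47.2 CPM in TG-Ab. The order of the TG-Ab libraries was the same in both genes, with library 3 highest and library 2 lowest. The log2 fold changes were 2.69 and 3.14 under antibiotics, and -2.42 and -2.26 in untreated rats. The untreated values rest on WT-C 3, with 24.1 and 10.6 CPM, since no other untreated library was above 2.82 CPM for the first gene or 1.13 CPM for the second.

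A pair on chromosome 2 and a pair on chromosome 9 differed from WT-Ab in opposite directions. On chromosome 2 (chr2:248398917-248409570 and chr2:248544104-248545549) TG-Ab held 3.97, 7.95 and 10.7 CPM for the first gene against 3.13, 1.39 and 3.08 CPM in WT-Ab. Its neighbour held 7.08, 10.6 and 15.5 CPM against 3.00, 1.91 and 6.98 CPM. Neither exceeded 1.09 CPM in the 6 untreated libraries. On chromosome 9 (chr9:4621425-4624425 and chr9:4866705-4896476) the genes were lower in TG-Ab, at 3.68, 5.25 and 5.08 CPM for the first against 7.91, 13.0 and 11.6 CPM in WT-Ab. Its neighbour was at 3.57, 4.63 and 5.6 CPM in TG-Ab against 5.93, 11.8 and 10.6 CPM in WT-Ab. Chromosome 10 held 10 of the 63 genes (0.944% of its 1059 tested genes), and chromosomes 1, 4, 6, 11 and 19 held 5 each, which is 0.327% of the tested genes of chromosome 1 and 1.53% of those of chromosome 11.

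**Figure D3:**
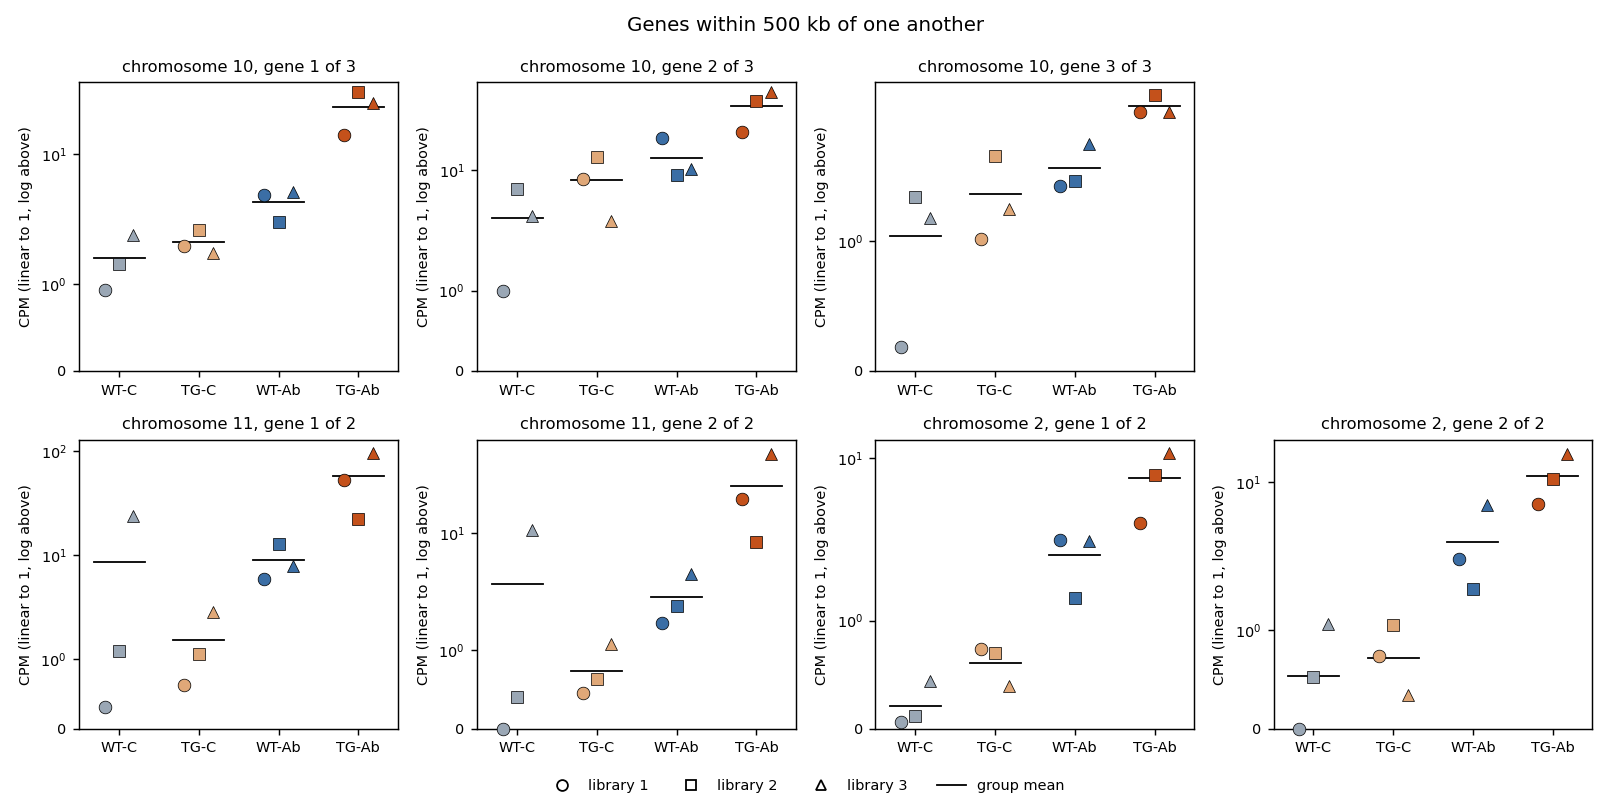
Level in CPM (vertical axis, linear up to 1 and logarithmic above) by group and library for a trio of neighbouring genes on chromosome 10 and a pair each on chromosomes 11 and 2, with the marker shape giving the library number and the line the group mean. TG-Ab is the highest group in each panel, and WT-C 3 stands apart in the chromosome 11 pair at 24.1 and 10.6 CPM.

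Among the 19 genes lower in TG-Ab, some were high in a single WT-Ab library. A gene of chromosome 17 (chr17:82430836-82953864) had 20.9, 1.27 and 1.54 CPM in WT-Ab and 0.173, 0.104 and 1.20 CPM in TG-Ab. Untreated, its WT-C libraries had 2.55, 35.5 and 2.18 CPM and its TG-C libraries 0.170, 70.2 and 0.847 CPM, so WT-C 2 and TG-C 2 were the high libraries there. On chromosome 19 (chr19:14345993-14346891) WT-Ab 1 had 13.8 CPM and the other 5 treated libraries at most 0.231 CPM. By contrast, a gene of chromosome 6 with 1 exon (chr6:146394456-146395025) held 8.61, 9.53 and 8.65 CPM in WT-Ab and 3.16, 2.29 and 1.94 CPM in TG-Ab. Its log2 fold change was -1.87 with a standard error of 0.274, and it was 1.39 in untreated rats.

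A gene of chromosome 4 (chr4:119182135-119188251) and a gene of chromosome 13 (chr13:100980574-101043110) had lower means in TG in both contrasts, without passing an adjusted test. The former had 4.72, 17.9 and 18.9 CPM in WT-Ab and 1.90, 1.77 and 6.06 CPM in TG-Ab, with overlap between the groups. Untreated, it ran from 16 to 30.3 CPM in WT-C and from 4.75 to 7.62 CPM in TG-C. The chromosome 13 gene had 3.76, 5.83 and 8.46 CPM in WT-Ab and 2.30, 1.30 and 3.66 CPM in TG-Ab, and 8.25 to 10.2 CPM in WT-C against 2.38 to 3.28 CPM in TG-C. It was 1 of 5 genes (0.0401% of 12457) in which the 6 TG libraries at 3 M lay below the 6 WT libraries. In 5 others they lay above, and 2 of these 10 genes were among the 63.

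For the same genotype contrast without antibiotics, 75 of 12038 genes (0.623%) had an unadjusted p under 0.05 with at least a 2-fold difference, 54 higher in TG-C (0.449%) and 21 lower (0.174%). None had an adjusted p under 0.05 by edgeR, with 317 (2.63%) at an unadjusted p under 0.05. Of the 44 genes higher in TG-Ab, 32 were tested there and 23 had a fold change above 0, where 59.3% of the 11855 genes tested in both contrasts did. Their median log2 fold change was 0.44 untreated, against 0.06 for all genes. Of the 19 lower in TG-Ab, 17 were tested and 10 had a fold change below 0, where 40.7% of all genes did. In differences of mean log2(CPM + 2), 22 of the 32 were above 0 with all 6 untreated libraries, where 54.7% of all genes tested in both were. Without WT-C 1, 18 of the 32 were above 0, where 54.0% of all genes were. The median of the 32 went from 0.50 to 0.10. Of the 17, 12 were below 0 with all 6 untreated libraries and 13 without WT-C 1. Across all genes tested in both, the fold changes of the 2 contrasts had a Pearson correlation of -0.34, a value over genes of 12 libraries and not over independent samples. WT-Ab 1, TG-Ab 1 and TG-C 1 were the 3 highest of the 12 libraries in 22.9% of all genes tested under antibiotics. What part these libraries have in the correlation was not tested. A difference between the 2 genotype effects passed for no gene (edgeR, interaction, smallest adjusted p = 0.998), with 184 of 12457 genes (1.48%) at an unadjusted p under 0.05, while DESeq2 called 3.

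**Figure D4:**
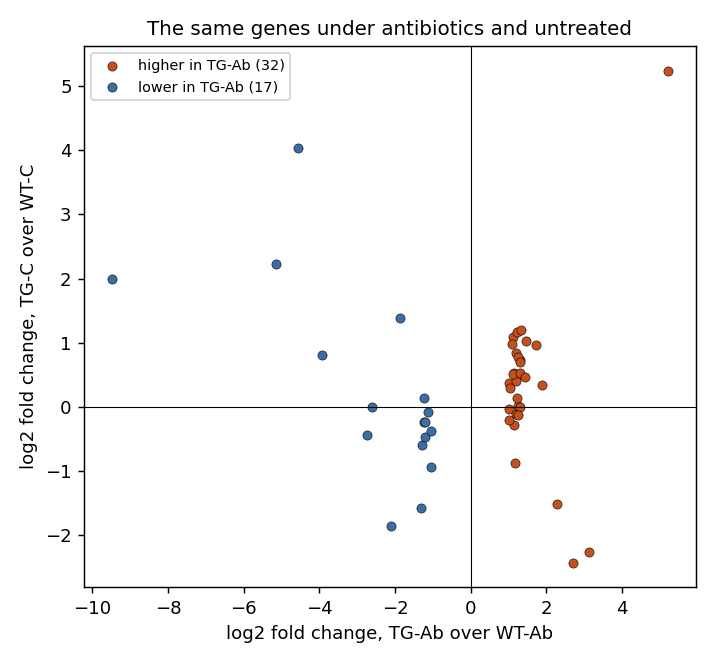
Log2 fold change of TG over WT in untreated rats (vertical axis) against that under antibiotics (horizontal axis) for the 32 genes higher and the 17 lower in TG-Ab that were tested in both contrasts. The 2 genes of chromosome 11 and the single-exon genes of chromosomes 1 and 7 have opposite signs in the 2 contrasts.

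Taking the library number as a block gave 81 genes (0.660%) at an unadjusted p under 0.05 with at least a 2-fold difference, 43 higher in TG-Ab (0.350%) and 38 lower (0.310%). Both fits held 50 genes in common, 37 higher and 13 lower, which is 79.4% of the genes without the block and 61.7% of those with it. All 50 had the same direction in the 2 fits. The fit with the block alone held 31 genes, 6 higher and 25 lower. In 19 of those 25, library 1 was the highest of its group in both TG-Ab and WT-Ab, where 31.0% of all genes tested had that order. In 13 of the 25, WT-Ab 1, TG-Ab 1 and TG-C 1 were the 3 highest of the 12 libraries (22.9% of all genes tested), which held for none of the 19 genes lower without the block. These counts follow in part from how the lists were made, since the block takes up differences between library numbers. A gene of chromosome 8 (chr8:49274960-49280901) had 119 CPM in WT-Ab 1, 65.2 CPM in TG-Ab 1 and 148 CPM in TG-C 1, and between 1.56 and 7.10 CPM in the other 9 libraries. On chromosome 10 (chr10:84309430-84619050) the 3 libraries held 71.8, 39.4 and 74.3 CPM, and the others at most 3.46 CPM.

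The libraries numbered 1 stood apart over the whole transcriptome as well. The first principal component of log2(CPM + 2) over the 12274 genes took 66.0% of the variance and placed WT-Ab 1 at -66.1 and TG-Ab 1 at -35.8, with the other 4 libraries between 18.5 and 37.8. The second component took 18.7% and did not separate the genotypes either. WT-Ab 1 and TG-Ab 1 correlated at 0.964, while WT-Ab 1 correlated with the other WT-Ab libraries at as little as 0.862. The TG minus WT difference of pair 1 correlated across genes with that of pairs 2 and 3 at -0.27 and -0.38, and pairs 2 and 3 correlated at 0.37. In 995 genes (8.11%) TG-Ab was above WT-Ab in all 3 pairs, and in 1388 (11.3%) below. The list chosen by unadjusted p and fold held 152 genes without WT-Ab 1, 41 without WT-Ab 2, 98 without TG-Ab 1 and 258 without both libraries numbered 1. The median SD of log2(CPM + 2) within a group was 0.29 in WT-Ab and 0.20 in TG-Ab. What sets these libraries apart was not tested.

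**Figure D5:**
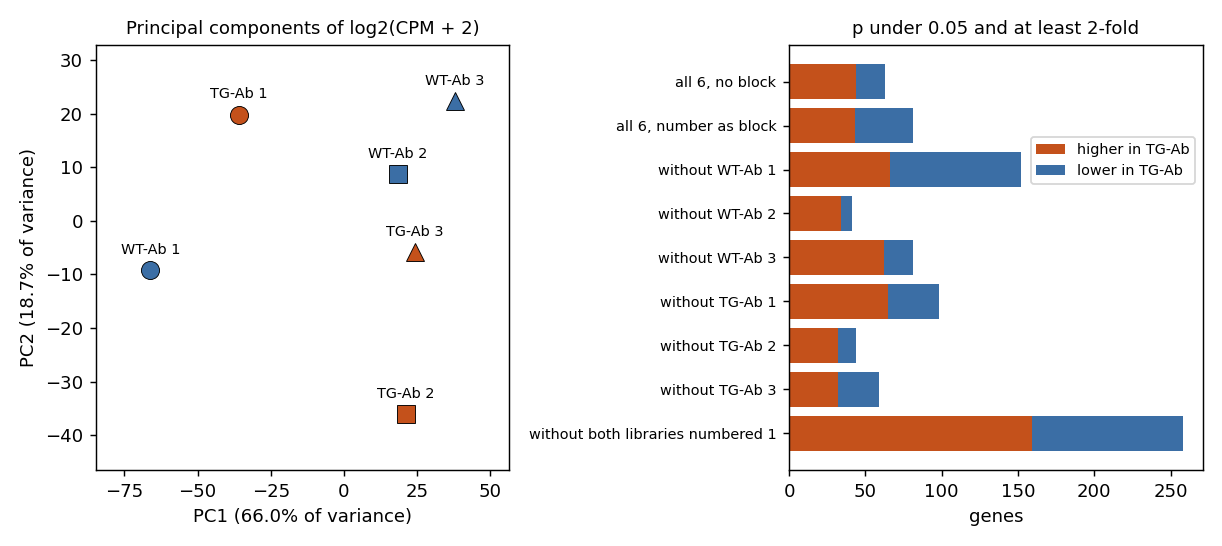
Left, the first and second principal components of log2(CPM + 2) for the 6 libraries, with colour for genotype and marker shape for library number. Right, genes with an unadjusted p below 0.05 and a 2-fold or larger difference in each fit, from 41 without WT-Ab 2 to 258 without both libraries numbered 1, with 63 for all 6 libraries without the block.

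Mitochondrially encoded genes, which code for parts of the respiratory chain and of the mitochondrial ribosome, took 7.62%, 11.7% and 11.5% of counts in WT-Ab and 9.35%, 11% and 13.7% in TG-Ab. The groups overlapped, and library 1 was the lowest in each. The mean share was 10.3% ± 2.32 in WT-Ab and 11.4% ± 2.18 in TG-Ab (SD, n = 3), a difference of 1.07 percentage points (two-sided exact permutation test, p = 0.7, where 0.1 is the smallest p that 3 against 3 allows). Of 15 mitochondrial genes tested, 12 had a log2 fold change above 0, with a range of -0.15 to 0.33 and a median of 0.15, and none had an unadjusted p under 0.05. With bulk tissue, fewer cells of a type and less RNA per cell cannot be told apart in any of these values.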

How the data were processed

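RNA-sequencing libraries of rat colon were analysed from the deposited raw counts per gene. Per the file headers, the authors counted reads over the exons of each gene with featureCounts 2.0.0 against Rnor6 gene models, taking reads of mapping quality 3 or more and counting the reverse strand (option 2). The submitters' processing notes name bcl2fastq 2.19.1 and STAR 2.5.4a. The labels name a directional poly(A) kit and the study's methods a 3' kit and another genome build, so levels were compared between libraries and not between genes, and CPM was not scaled by gene length. Groups came from the sample titles. Neither source says that each library is a different rat, so p-values measure the spread between libraries, which may be technical.

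CPM was computed as 1e+06 times a gene's count over the library's total in genes, and genes with at least 4 CPM in 1 or more of the libraries compared were kept. The test was edgeR 4.0.16 (R 4.3.3; TMM, robust glmQLFit, glmQLFTest, two-sided, Benjamini-Hochberg over all genes kept), without a block and with the title's number as a block, after it had been tested on simulated data. The standard error is the log2 fold change over the square root of the F statistic. DESeq2 1.42.0, edgeR's likelihood ratio test and limma 3.58.1 were alternatives, beside other filters, size factors, other sets of libraries and each library left out. scipy 1.17.1 gave the exact permutation test. Libraries of a group differed by far more than sampling noise (mean chi-square per gene from 29.9 to 214), so none in a group was the same library sequenced again. The check cannot tell different rats from several samples of the same rat.

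Same-numbered treated libraries were checked for pairing through their deviations from the group means of log2(CPM + 2). These correlated at 0.596, 0.302 and 0.565 for numbers 1, 2 and 3, each above 0.1, and so the numbers were taken as pairs. That pairing comes from the data and not from the labels. WT-Ab 2 correlated more with TG-Ab 3 (0.548) than with TG-Ab 2, and WT-Ab 3 correlated with TG-Ab 2 at 0.217. A swap of numbers 2 and 3 would thus also have passed 0.1, so the check cannot tell these pairings apart.

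The comparison, the lists and the tests were chosen with earlier results of these data known. Genes were to be named by symbol, and gene lists and cell type markers to be counted. The files pair no symbol with an identifier, and so, by the rule set for that case, 2 identifiers higher and 2 lower in TG-Ab were to be printed, those with the smallest p among genes without overlap between groups and with at least 4 CPM in the higher group. One of the higher genes is not reported here. Genes given by position were picked after their values had been seen, and the lists were not counted.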

Additional observations from a re-analysis of the deposited data

Results flagged for a closer look

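In 10 of the 63 genes every TG library lay on one side of the WT mean under antibiotics and on the other side untreated. The test of the difference itself, the genotype effect under antibiotics minus that in untreated rats, gave an adjusted p of 0.998 by edgeR for each of the 10, so none passed.

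For ENSRNOG00000037673 on chromosome 1 the TG-Ab libraries lay below the WT-Ab mean of 23.8 CPM and the TG-C libraries above the WT-C mean of 7.48 CPM, with a difference of -7.30 on the log2 scale. For ENSRNOG00000061943 on chromosome 7 the TG-Ab libraries had no counts, and the TG-C libraries lay above the WT-C mean of 1.95 CPM. Its fitted difference of -11.5 depends on the small count edgeR adds to zeros. The WT-C means rest mainly on WT-C 1, with 20.9 and 5.79 CPM, since WT-C 2 and 3 were at or below 0.808 CPM in both genes.

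Of the other 8, the pair on chromosome 11 described above had differences of 5.19 and 5.47, with a WT-C mean that rests on WT-C 3. The gene of chromosome 19 (chr19:56435577-56441733) had a difference of 1.42. Higher in TG-Ab and lower in TG-C were also genes of chromosome 1 (chr1:221151827-221153278, 2.12), chromosome 10 (chr10:11757682-11760620, 5.71), chromosome 14 (chr14:13827636-13837671, 7.75) and chromosome 20 (chr20:18058245-18060661, 3.86). A gene of chromosome 10 (chr10:72486152-72497041) had the opposite order, with -6.59. Its WT-Ab mean rests mainly on WT-Ab 2, at 8.83 CPM against 0.255 and 1.15 CPM in WT-Ab 1 and 3. The chromosome 14 gene had 0 or 1 counts in each WT-Ab library, so its fitted value depends on the added count too. Its TG-Ab mean rests on TG-Ab 3, with 116 counts against 6 and 1 in TG-Ab 1 and 2. Its WT-C mean rests on WT-C 1, with 55 counts against 0 and 1 in WT-C 2 and 3. For the chromosome 20 gene the WT-C mean rests mainly on WT-C 3, at 8.14 CPM against 0.810 and 0.750 CPM in WT-C 1 and 2. These genes are given because they met this pattern, and how many of all genes tested met it was not counted. No group of 4 or more libraries was compared, so single libraries were not tested as outliers.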

How the results depend on the processing

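The log2 fold changes of the 3 genes named by identifier kept their direction under each of the 16 alternatives in which they were tested. None of the 3 was tested with at least 4 CPM required in every library. ENSRNOG00000037673 kept its call under 7 of them, and lost it, among others, with limma's sample weights (adjusted p = 0.0544), with all 4 groups in one fit (1.0) and in the fit of genotype over 12 libraries (-1.26, 0.996). The count at an adjusted p under 0.05 went from 1 to 0 with at least 4 CPM required in every library, with limma, with all 4 groups in one fit and with the replicate block, to 5 with edgeR's likelihood ratio test and to 16 with DESeq2. Requiring 4 CPM in every library leaves out any gene low in either group, which bears on all counts given for that filter. ENSRNOG00000037673, at most 0.920 CPM in TG-Ab, was left out by it before testing, so that loss was fixed in advance. Leaving out 1 library gave 0 to 1. The count of 63 at an unadjusted p under 0.05 and at least 2-fold became 26 with 4 CPM in every library, 151 with no filter, 95 with DESeq2, 242 with limma, 258 without both libraries numbered 1 and 36 for genotype over 12 libraries, an alternative added after the data were seen. With 1 library left out it ran from 41 (without WT-Ab 2) to 152 (without WT-Ab 1).

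With the replicate block, 0 genes at an adjusted p under 0.05 became 23 with DESeq2, 23 with the likelihood ratio test and 1 without the block, and 0 to 13 without 1 pair, the 13 without pair 2. The 81 genes with the block became 27 with 4 CPM in every library and 107 to 316 without 1 pair, the 316 without pair 1. At an adjusted p in edgeR's quasi-likelihood test, the block changed the call of ENSRNOG00000037673 alone. For the difference between treated and untreated genotype effects, no gene became 3 with DESeq2 and 0 to 2 without 1 library, the 2 without WT-C 1. The 75 genes of the untreated contrast ran from 39 without WT-C 1 to 687 without TG-C 3, with 45 without WT-C 3 and 467 without TG-C 2. The difference in mitochondrial share ran from -0.272 without WT-Ab 1 to 2.07 percentage points without TG-Ab 1. The cause of these shifts was not tested. Genes at a few CPM rest on few counts per library, and 3 libraries a group limit what the tests can call.

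Splits between directions moved too: 44 higher and 19 lower became 66 and 86 without WT-Ab 1, and 80 and 71 with no filter.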

Other observations

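Of the 10 genes at 3 M whose 6 TG and 6 WT libraries did not overlap, 8 were not among the 63 genes above. Their fold changes of group means over the 12 libraries were small, the largest being 0.78 on the log2 scale for a gene of chromosome 5 (chr5:139208046-139227196). That gene had 6.12, 9.81 and 10.8 CPM in WT-Ab and 15, 14.2 and 12.6 CPM in TG-Ab, and 5.73, 10.6 and 7.75 CPM in WT-C against 14.9, 13.9 and 16.6 CPM in TG-C. Under antibiotics its log2 fold change was 0.63 with a standard error of 0.276, and it passed no adjusted test. It was picked after its values had been seen.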
